A study of Mus musculus with 4 samples.

Results

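The loci of 9 genes that encode NF-kB and NFAT transcription factors or hold NF-kB in check were examined for binding of JunB, BATF and IRF4 in activated regulatory T (Treg) cells. The 6 NF-kB genes were Nfkb1, Nfkb2, Rel, Rela, Relb and Nfkbia, and the 3 NFAT genes were Nfatc1, Nfatc2 and Nfatc3. A ChIP-seq peak was assigned to a gene when its centre lay within 50 kb of any annotated transcription start site (TSS) of that gene in the mouse build mm9. The members were 152 of the 103355 listed peaks (0.147%), made up of 46 JunB, 26 BATF, 41 Junb-sufficient IRF4 and 39 Junb-deficient IRF4 peaks. None of them was assigned to more than 1 of the genes.

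The study asked how far JunB binds together with BATF and IRF4 in Treg cells, and whether IRF4 binding depends on JunB. Treg cells (splenic CD4+CD25+ cells by the study's methods) of C57BL/6 mice were activated in vitro for 60 h with antibodies to CD3 and CD28 and with IL-2, and chromatin was precipitated with antibodies to JunB, BATF or IRF4. The Junb-sufficient cells, labelled Foxp3cre JUNB+/+, gave 1 library for each of the 3 factors. The Junb-deficient cells, labelled Foxp3cre JUNBFl/Fl, gave 1 IRF4 library. The labels place Cre under Foxp3, the lineage factor of Treg cells, in both genotypes, whereas the study describes the ChIP-seq cells as Junb fl/fl without Cre and as Cd4-Cre Junb fl/fl, in which Cre acts in T cells in general; the labels give no age. The antibody field of the labels exchanges BATF and IRF4 for the Junb-sufficient libraries, and the titles, which match the study's description, were followed here. No JunB library came from the Junb-deficient cells, so the loss of JunB could not be checked in the peak lists. By flow cytometry, the study reports that JunB was efficiently deleted in Treg cells when Cre was under Foxp3. The peak lists also hold no transcript levels against which Treg markers could be read.

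NF-kB proteins are dimeric transcription factors held in the cytoplasm by inhibitors of the IkB family and released when antigen and costimulatory receptors activate the IkB kinase complex. NFAT proteins enter the nucleus after calcium activates the phosphatase calcineurin, and commonly bind DNA next to AP-1 factors, the family to which JunB and BATF belong. In Treg cells c-Rel takes part in the induction of Foxp3, and NFAT can form complexes with Foxp3 itself, while IRF4 often binds beside BATF and a Jun partner at AP-1 and IRF composite elements (AICEs).

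The JunB peaks at which the comparisons below turn are shown first, as 151 bp of the mm9 plus strand, 5′ to 3′. Capitals mark matches on either strand to the AP-1 consensus (TGACTCA, or TGAGTCA read from the other strand), the AICE consensus or the NF-kB consensus, and a stretch without capitals held none of them. The kept sites lie under the earliest-listed IRF4 peak that overlapped both a JunB and a BATF peak and was found in both genotypes, and the missing sites lie under the earliest-listed IRF4 peak that overlapped a JunB peak and had no overlapping peak in Junb-deficient cells.
Nfkb1 intron, kept, chr3:135328761-135328911: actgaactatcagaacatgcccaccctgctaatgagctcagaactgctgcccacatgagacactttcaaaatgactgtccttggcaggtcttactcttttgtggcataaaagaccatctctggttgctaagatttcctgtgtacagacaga
Nfkb1 intron, missing, chr3:135339368-135339518: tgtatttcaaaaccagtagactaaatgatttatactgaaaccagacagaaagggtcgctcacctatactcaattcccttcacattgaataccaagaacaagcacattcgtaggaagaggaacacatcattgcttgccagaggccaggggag
Rel intron, kept, chr11:23654416-23654566: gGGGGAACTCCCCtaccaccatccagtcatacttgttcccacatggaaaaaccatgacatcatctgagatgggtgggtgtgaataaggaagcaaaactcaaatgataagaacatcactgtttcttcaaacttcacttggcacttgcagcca
Rel upstream, missing, chr11:23720671-23720821: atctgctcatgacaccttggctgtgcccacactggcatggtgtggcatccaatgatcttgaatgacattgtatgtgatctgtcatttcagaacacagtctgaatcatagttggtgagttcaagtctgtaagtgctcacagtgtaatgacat
Rela intron, kept, chr19:5643521-5643671: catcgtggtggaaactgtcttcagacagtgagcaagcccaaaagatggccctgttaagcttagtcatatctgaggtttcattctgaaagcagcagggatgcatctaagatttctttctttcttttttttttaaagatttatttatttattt
Nfkbia downstream, missing, chr12:56567365-56567515: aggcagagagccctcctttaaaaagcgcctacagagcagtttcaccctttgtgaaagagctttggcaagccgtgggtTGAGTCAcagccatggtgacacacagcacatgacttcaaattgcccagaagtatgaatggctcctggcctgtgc
Nfatc2 intron, kept, chr2:168399010-168399160: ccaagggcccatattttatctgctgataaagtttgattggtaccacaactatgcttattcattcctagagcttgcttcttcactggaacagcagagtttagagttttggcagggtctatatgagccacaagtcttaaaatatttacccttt
A pair of further JunB peaks was added after their letters were seen. One, downstream of Rel, was the only JunB peak of the 9 loci with an AICE match, and the other, upstream of Nfkbia, was the one with most AP-1 matches.
Rel downstream, AICE, chr11:23634853-23635003: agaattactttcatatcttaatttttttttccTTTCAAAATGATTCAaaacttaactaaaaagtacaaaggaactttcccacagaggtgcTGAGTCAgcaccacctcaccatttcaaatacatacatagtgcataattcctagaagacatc
Nfkbia upstream, AP-1, chr12:56613447-56613597: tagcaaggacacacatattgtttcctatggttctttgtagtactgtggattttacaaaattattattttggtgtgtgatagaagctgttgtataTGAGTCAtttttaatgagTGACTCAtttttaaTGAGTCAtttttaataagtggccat

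Of the 46 JunB peaks, 14 (30.4%, 95% exact binomial interval 17.7 to 45.8) held the AP-1 consensus, against 22.8% of all 29659 JunB peaks. The NF-kB consensus was found in 4 peaks (8.70%, interval 2.42 to 20.8), against 2.43% of all JunB peaks, and the AICE consensus in 1 peak (2.17%, interval 0.0550 to 11.5), against 3.42%. These intervals, like all those below, cover counting error over peaks only, and each of the 3 contained the share of the whole list. The 4 peaks with the NF-kB consensus were an Nfkb1 intronic peak (chr3:135333613-135333763), the kept Rel intronic peak, a Rel upstream peak (chr11:23686445-23686595) and the peak over the start of Nfkbia. In the kept Rel intronic peak, 3 overlapping matches began at the edge of the peak, from 74 to 72 bp before its centre. In the missing Nfkbia peak the single AP-1 match began 2 bp after the peak centre, and the upstream Nfkbia peak carried 3 AP-1 matches beginning 19, 37 and 51 bp after its centre. AP-1 was held by 4 of the 14 JunB peaks at sites with both BATF and IRF4 (28.6%), and of the 26 at sites with neither 8 did (30.8%).

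The 4 lists rested on 21127029 to 27399986 tags per library before duplicates at a position were reduced to 1. The share of tags in peaks was 4.27% for JunB, 5.03% for BATF, 12.76% for Junb-sufficient IRF4 and 11.15% for Junb-deficient IRF4, which limits how far counts can be compared between libraries. JunB peaks were also called under other settings, 151 bp wide and at least 300 bp apart from a minimum of 10 tags, while the other lists held peaks of 605 to 613 bp that were at least 1210 to 1224 bp apart from a minimum of 19 tags. The value by which each list was ordered is not given in the files used here. A peak's place in its list was used as a description of rank because agreement with the other lists fell along it. The share of Junb-sufficient IRF4 peaks without a Junb-deficient counterpart rose from 5.05% in the first 10% of the list to 67.9% in the last 10%, and the opposite share for Junb-deficient IRF4 from 4.24% to 59.6%. The share of peaks that overlapped any other list fell from 93.4% to 23.7% for JunB, and from 99.9% to 82.4% for BATF, over the same segments. Ranks are coarse, since the lists consist of runs sorted by chromosome and position (533 runs for Junb-sufficient IRF4, the longest of 602 peaks or 1.94% of the list, and 448 for Junb-deficient IRF4, the longest of 721 or 2.48%), and peaks of 1 run have no order among themselves. For JunB the longest of 214 runs held 2162 peaks (7.29%).

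Binding was uneven over the 9 loci, with Nfkb1 holding 56 of the 152 peaks and Nfatc3 holding 2. In order of JunB peaks, Nfkb1 had 26, Rel 7, Nfatc2 6 and Nfkbia 4. Nfkb2, Rela and Nfatc1 had 1 each, and Relb and Nfatc3 had none. The median over the 9 genes was 1 JunB, 2 BATF, 4 Junb-sufficient IRF4 and 4 Junb-deficient IRF4 peaks, whereas over all 22380 protein-coding genes, counted the same way, it was 1, 0, 2 and 2. By that count 35.2% of protein-coding genes had no JunB peak, 51.1% no BATF peak, 26.0% no Junb-sufficient IRF4 peak and 26.7% no Junb-deficient IRF4 peak. Each of the 9 loci had a Junb-sufficient IRF4 peak, and 8 of the 9 had a Junb-deficient one. Other genes lie inside these windows: 107 of the 152 peaks were nearest to a TSS of the member gene and 45 were nearer to that of another protein-coding gene, most often at Nfkb1 (20 of 56), Rel (8 of 21) and Relb (8 of 11).

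**Figure D1:**
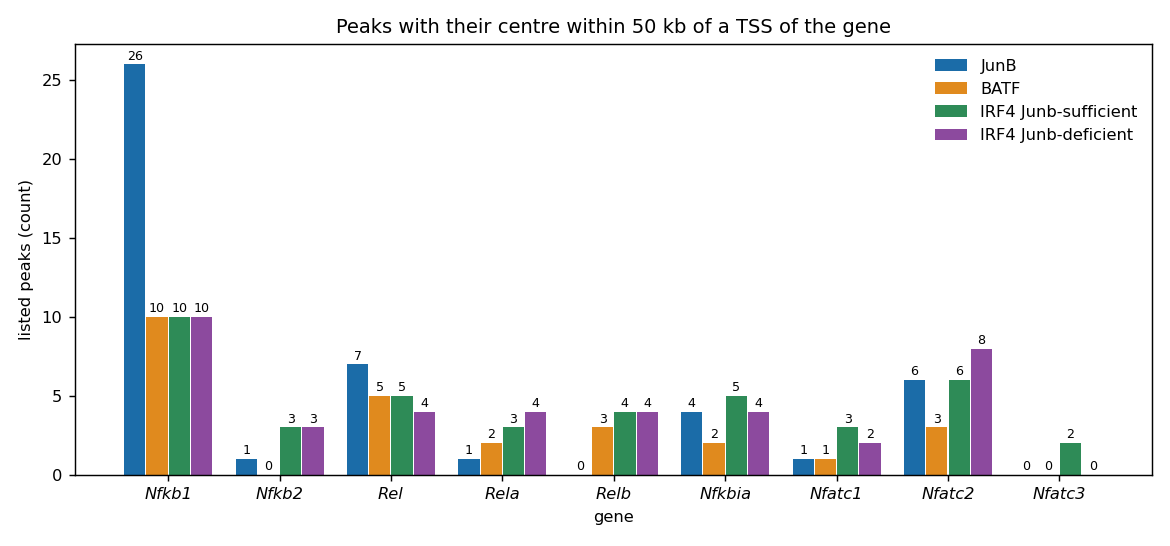
Number of listed peaks (vertical axis) within 50 kb of a TSS of each of the 9 genes (horizontal axis), with 1 bar per library and the count above it. Nfkb1 stands out in the JunB list with 26 peaks, Relb and Nfatc3 have no JunB peak, and Nfatc3 has no Junb-deficient IRF4 peak.

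**Figure D2:**
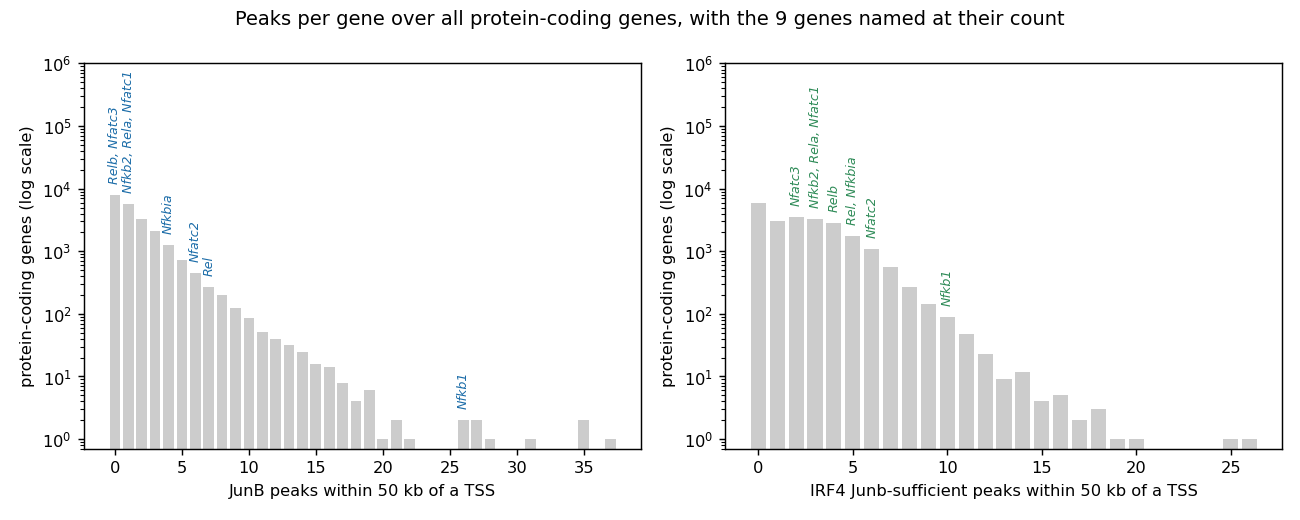
Number of protein-coding genes (vertical axis, log scale) with each number of JunB (left) or Junb-sufficient IRF4 (right) peaks within 50 kb of a TSS (horizontal axis), with the 9 genes written above their own count. Nfkb1, at 26 JunB peaks, lies in the far tail of the JunB distribution, and the other 8 genes lie between 0 and 7.

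Nfkb1 encodes a precursor that is processed into a DNA-binding NF-kB subunit. The gene (ENSMUSG00000028163, chr3:135247619-135354511, minus strand) has 8 annotated TSSs, so its windows together span 197 kb, and 13.2 JunB peaks per 100 kb fell there. As many JunB peaks were found at 9 of 22380 protein-coding genes (0.0402%) and as many per 100 kb at 0.179% of them. The 10 BATF peaks were matched or exceeded at 0.0760% of genes by count and at 0.304% per 100 kb. The 10 Junb-sufficient IRF4 peaks were matched or exceeded at 0.894% of genes by count and at 6.83% per 100 kb. By either measure the JunB peaks stood furthest out, and JunB was also the list in which closely spaced peaks could be listed separately; the part of that setting in the count was not tested. Of the 26 JunB peaks, 7 overlapped both a BATF and a Junb-sufficient IRF4 peak (30.1% of the whole JunB list did), and 16 overlapped neither (54.3% of the whole list). The JunB peaks lay through the gene body, upstream of the first TSS and, beyond the other end of the gene, in an intron of the neighbouring gene Manba. Those 19.8 kb or more upstream were nearer to a TSS of another gene, Gm9799. Of the 26 JunB peaks, 11 shared a run with another Nfkb1 peak, so that their ranks could not be told apart.

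The earliest-listed site of all 9 loci was in an Nfkb1 intron, 1.95 kb downstream of an internal TSS. There the Junb-sufficient IRF4 peak (chr3:135328510-135329122) was at place 109 of 31093 and its Junb-deficient counterpart at place 278 of 29033. The BATF peak at this site was at place 152 of 13570 and the JunB peak at place 395 of 29659. All 4 were the earliest-listed Nfkb1 peak of their library, within the first 1.33% of each list, and the JunB peak held none of the 3 consensus sequences. An IRF4 peak over a further internal Nfkb1 TSS was listed in both genotypes (places 15012 and 14509) and overlapped neither JunB nor BATF.

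Of the 10 Junb-sufficient IRF4 peaks at Nfkb1, 7 overlapped a Junb-deficient peak and 3 did not (30.0%). Over all Junb-sufficient IRF4 peaks the share without an overlap was 35.0%, which stands beside the counts of missing peaks at each gene below. A missing peak in the neighbouring gene Manba (chr3:135218876-135219488, intronic, 38.2 kb downstream of the nearest Nfkb1 TSS) overlapped JunB and BATF and stood at place 7052, or 22.7% of the list. Another (chr3:135339114-135339726, intronic, place 5461) overlapped JunB alone and stood at 17.6% of the list, within the 10% of it in which 12.4% of all IRF4 peaks had no counterpart. The remaining one (chr3:135394091-135394703, place 7556) overlapped neither factor and was nearer to the gene Gm9799. The Manba peak and the remaining one lay in the 10% segment where 19.7% of all IRF4 peaks had no counterpart. The distance from each of these 3 to the nearest Junb-deficient IRF4 peak was 31.5, 10.6 and 10.2 kb, so they were not near misses of the overlap rule.

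In the opposite direction, 3 of the 10 Junb-deficient IRF4 peaks at Nfkb1 had no Junb-sufficient counterpart, against 30.4% of the whole list. These 3 stood early in their list. The one that overlapped a JunB peak (chr3:135383910-135384514, 29.7 kb upstream) was at place 1701 of 29033, in the first 10% of the list, where 4.24% of all Junb-deficient IRF4 peaks lacked a counterpart. The others, both intronic, were at places 3194 and 4322, in the 10% segment where 8.82% of Junb-deficient IRF4 peaks lacked a counterpart. Upstream of the gene at 19.9 kb, the Junb-sufficient IRF4 peak (chr3:135374056-135374668, place 615) and the Junb-deficient peak (chr3:135374465-135375069, place 4430) overlapped, but their centres were 405 bp apart. A JunB peak lay under each: the one at chr3:135374281-135374431 overlapped the Junb-sufficient IRF4 peak and not the other, and the one at chr3:135374777-135374927 overlapped the Junb-deficient IRF4 peak and not the first.

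**Figure D3:**
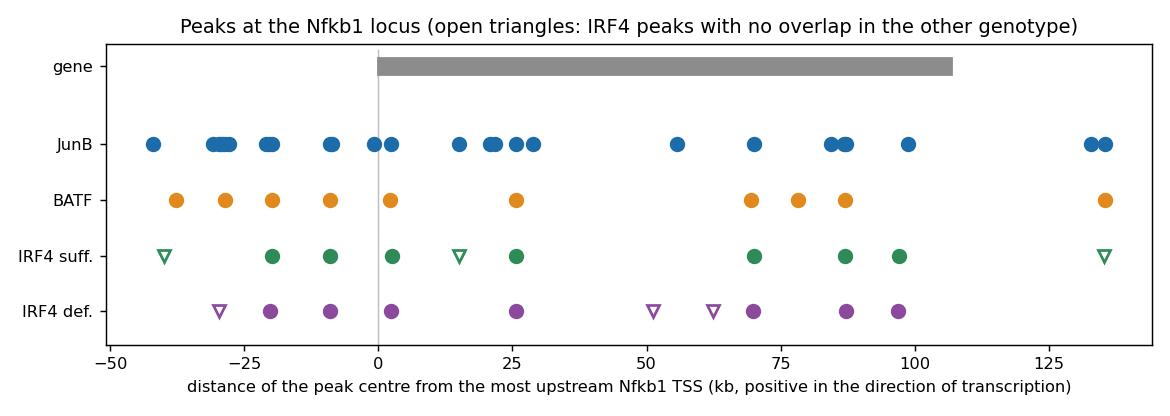
Peak centres at Nfkb1 by distance from its most upstream TSS (horizontal axis, kb, positive in the direction of transcription), with 1 row per library and the gene as a grey bar; open triangles are IRF4 peaks without an overlapping peak in the other genotype. JunB peaks fill the row from 42 kb upstream to beyond the gene, with 3 open triangles in each IRF4 row.

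Rel encodes c-Rel, the NF-kB subunit most closely tied to Treg development. It has 1 TSS, with a window of 100 kb, and had the second-largest JunB count, 7, which 3.99% of protein-coding genes reached by count and 2.00% per 100 kb. Its 5 BATF peaks were reached at 2.07% of genes by count and at 0.626% per 100 kb. For its Junb-sufficient IRF4 peaks these shares were 17.9% and 9.19%, and for its Junb-deficient IRF4 peaks 28.1% and 17.2%. The earliest-listed Junb-sufficient IRF4 peak was intronic (chr11:23654160-23654772, place 2060), overlapped JunB (place 2627) and BATF (place 3046), and was kept in Junb-deficient cells at place 3582; each was the earliest Rel peak of its list. Of 5 Junb-sufficient IRF4 peaks 1 was missing, 49.8 kb upstream (chr11:23720462-23721074, place 12153), where JunB and BATF peaks lay in Junb-sufficient cells. It was at the edge of the 50 kb window and nearer to Papolg, and the nearest Junb-deficient IRF4 peak lay 2.59 kb away, outside the window. The site with the AICE match, 36 kb downstream, had all 3 factors and kept its IRF4 peak (places 6138 and 8191). A Rel upstream IRF4 peak without JunB or BATF (chr11:23703252-23703864) stood far earlier in the Junb-deficient list, at 15.7% of it against 58.7% of the Junb-sufficient list, a difference that 1.84% of all 20218 overlapping IRF4 pairs equalled or exceeded in that direction. Pairs that started near the front of the list had no room for such a shift, and the share was not restricted to those that had. The same limit, at the other end of the list, holds for the shares of later shifts below.

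Rela encodes the NF-kB subunit that carries the main activation domain of the canonical pathway. It had 1 JunB peak, late in its list at place 28255 of 29659, under BATF (place 12251) and IRF4 peaks in an intron. That IRF4 peak (chr19:5643264-5643876) was at place 9516, or 30.6% of the Junb-sufficient list, and its counterpart at place 22608, or 77.9% of the Junb-deficient list, a later place by 47.3 points. As large a difference in that direction was seen in 2.69% of all pairs. All 3 Rela IRF4 peaks were kept, and 1 of the 4 Junb-deficient peaks (chr19:5648623-5649227, place 25306) had no counterpart. The earliest BATF peak (place 11578) and the earliest Junb-deficient IRF4 peak (place 10038) were at one site, 0.818 to 0.834 kb upstream of a TSS.

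Relb and Nfkb2 encode the subunits of the non-canonical NF-kB dimer. At Relb no JunB peak was listed, and all 4 IRF4 peaks were kept. The Relb TSS lay under IRF4 peaks of both genotypes, at place 11752 of 31093 in Junb-sufficient and 10724 of 29033 in Junb-deficient cells, and under a late BATF peak at place 13209 of 13570. The 4 Relb pairs all stood earlier in the Junb-deficient list, by 0.9 to 14.8 points, of which the smallest was within the length of a run. The earliest-listed Relb BATF peak, at place 11440, was in an intron of Clasrp. At Nfkb2 no BATF peak was listed, and its single JunB peak (place 13730) lay in an intron of Gbf1, 38.1 kb upstream, apart from any IRF4 peak. The Junb-sufficient IRF4 peak chr19:46379843-46380455 (place 7199) covered an Nfkb2 TSS, and its counterpart chr19:46379421-46380025 (place 7933), with its centre 426 bp away, overlapped it but did not cover a TSS. The missing Nfkb2 peak (chr19:46406388-46407000) was late, at place 26996, in an intron of Cuedc2, and a Junb-deficient peak without counterpart stood 3.78 kb from it at place 26030.

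Nfkbia encodes the inhibitor IkB alpha, which NF-kB itself induces. Of its 5 Junb-sufficient IRF4 peaks 2 were missing. The one that overlapped a JunB peak (chr12:56567126-56567738, 26.2 kb downstream, place 8615) was the member whose centre lay nearest to a Junb-deficient IRF4 peak without overlapping it, at 1.35 kb, and that peak also had its own Junb-sufficient counterpart at chr12:56565811-56566423 (place 7505), the earliest Junb-sufficient IRF4 peak of Nfkbia. The other missing peak (chr12:56544069-56544681, 49.3 kb downstream, place 21925) overlapped neither factor. At 19.9 kb upstream, the JunB peak with 3 AP-1 matches (place 13324) and a BATF peak (place 7813, the earliest of Nfkbia) overlapped no Junb-sufficient IRF4 peak but a late Junb-deficient one (chr12:56613194-56613798, place 28225 of 29033). In that last segment 59.6% of all Junb-deficient IRF4 peaks had no counterpart. The IRF4 peak 9.13 kb upstream was the earliest Junb-deficient one, at place 4241. A JunB peak covered the Nfkbia TSS (chr12:56593531-56593681, place 23599) with no BATF or IRF4 peak, and held an NF-kB consensus match; the earliest JunB peak was 6.61 kb upstream, at place 8367.

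Nfatc2 encodes the NFAT protein that is abundant in resting T cells. It had 6 JunB, 3 BATF, 6 Junb-sufficient IRF4 and 8 Junb-deficient IRF4 peaks, over 11 TSSs whose windows together span 149 kb. As many Junb-deficient IRF4 peaks were found at 2.27% of protein-coding genes, and as many per 100 kb at 5.67%. A pair of intronic sites carried all 3 factors and IRF4 in both genotypes. At one (chr2:168398746-168399358) the IRF4 peak was at place 5401, or 17.4% of the Junb-sufficient list, and its counterpart at place 9167, or 31.6% of the Junb-deficient list, a difference that 21.8% of all pairs equalled or exceeded in that direction. At the other (chr2:168357797-168358409) the places were 11029 and 24033, or 35.5% and 82.8% of the lists, a difference that 2.68% of all pairs equalled or exceeded. There 2 JunB peaks overlapped the IRF4 peak, the one at place 6002 within it and the one at place 8038 only at its edge. The earliest Nfatc2 IRF4 peaks had neither JunB nor BATF: in Junb-sufficient cells it was 0.531 kb upstream of an internal TSS, at place 5109, and in Junb-deficient cells 5.52 kb upstream of a TSS, at place 7449. The earliest BATF peak (place 4459) overlapped JunB and no IRF4 peak. The missing Nfatc2 peak was at place 23197, and the 3 Junb-deficient peaks without counterpart were at places 7709, 17747 and 26830; none of these 4 overlapped JunB. In the 10% segment of the missing peak 51.8% of all IRF4 peaks had no counterpart. For the 3 Junb-deficient peaks the shares in their segments were 15.6%, 38.5% and 59.6%.

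Nfatc1 encodes the NFAT protein that is itself induced on T cell activation, and Nfatc3 another family member expressed in T cells. At Nfatc1 the single JunB peak (chr18:80914011-80914161, 4.28 kb upstream, place 6234) stood alone, and the single BATF peak (place 11314) lay under an intronic IRF4 peak that was kept, at places 6669 and 12313. The other kept Nfatc1 peak (chr18:80888379-80888991) stood at 46.4% of the Junb-sufficient and 82.3% of the Junb-deficient list, a difference that 5.71% of all pairs equalled or exceeded in that direction. The missing one (chr18:80934892-80935504, in an intron of Atp9b) was late, at place 26988, in a 10% segment where 59.7% of all IRF4 peaks had no counterpart. At Nfatc3 no JunB, BATF or Junb-deficient IRF4 peak was listed within 50 kb. Its 2 Junb-sufficient IRF4 peaks (chr8:108577976-108578588, 4.46 kb upstream, place 13802, and chr8:108598087-108598699, intronic, place 15904) were both missing, and the nearest Junb-deficient IRF4 peak, the same one for both, was 47.1 and 67.2 kb away. These stood near the middle of the list, in 10% segments of it in which 30.6% and 35.1% of all IRF4 peaks lacked a counterpart, and with 2 peaks the share at this gene has no precision.

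**Figure D4:**
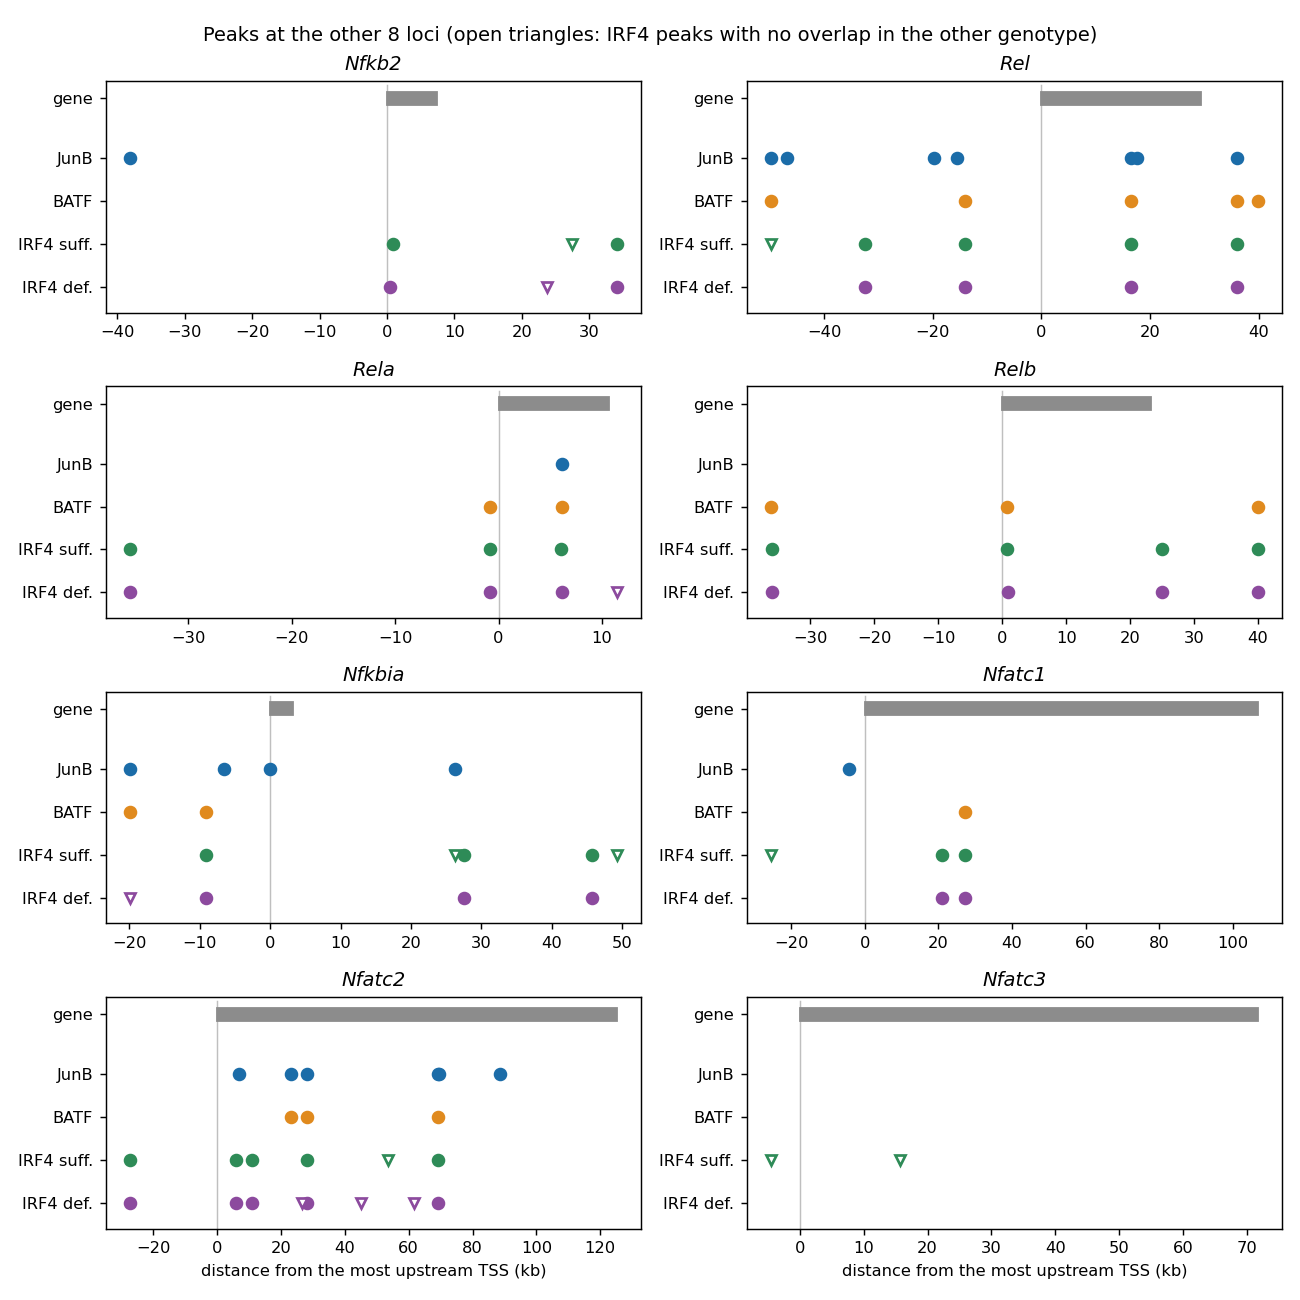
Peak centres at the other 8 loci by distance from the most upstream TSS (horizontal axis, kb, positive in the direction of transcription), drawn as 1 row per library with the gene as a grey bar; open triangles are IRF4 peaks without an overlapping peak in the other genotype. Both Nfatc3 peaks are open triangles, and Relb has no open triangle.

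Over the 9 loci 11 of 41 Junb-sufficient IRF4 peaks had no overlapping Junb-deficient peak (26.8%, 95% exact binomial interval 14.2 to 42.9). The same share was 35.0% over all 31093 peaks and 34.3% over those within 50 kb of a protein-coding TSS, and both values lay inside the interval. With 1 IRF4 library per genotype no test between genotypes was possible, and the loss of a listed peak cannot be told apart from a difference between the libraries. Of the 15 IRF4 peaks shared with JunB 4 were missing (26.7%, interval 7.79 to 55.1; all peaks 23.8%), namely 2 at Nfkb1, 1 at Rel and 1 at Nfkbia. Of the 19 with neither JunB nor BATF 7 were missing (36.8%, interval 16.3 to 61.6; all peaks 45.8%). The 6 NF-kB genes had 7 of 30 missing (23.3%, interval 9.93 to 42.3) and the 3 NFAT genes 4 of 11 (36.4%, interval 10.9 to 69.2), with intervals that overlapped. At the NFAT genes none of the 2 JunB-shared IRF4 peaks was missing, which with 2 peaks allows a share of up to 84.2%. In the first 50% of the Junb-sufficient list 6 of 28 member peaks were missing (21.4%; all peaks 18.5%), and in the last 50% 5 of 13 (38.5%; all peaks 51.5%).

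In the other direction 9 of 39 Junb-deficient IRF4 peaks had no Junb-sufficient counterpart (23.1%, interval 11.1 to 39.3), against 30.4% of all. Only the 2 peaks at Nfkb1 and Nfkbia described above overlapped JunB. A JunB peak lay under 15 of the 41 Junb-sufficient IRF4 peaks (36.6%, interval 22.1 to 53.1; all peaks 40.3%) and a BATF peak under 20 (48.8%, interval 32.9 to 64.9; all peaks 38.7%). Without Nfkb1, a choice made after its values were seen, JunB lay under 7 of 31 (22.6%, interval 9.59 to 41.1), so Nfkb1 carried 8 of the 15 JunB-shared IRF4 peaks. Of the 46 JunB peaks, 14 overlapped both BATF and IRF4 (30.4%, interval 17.7 to 45.8; all JunB peaks 30.1%) and 26 overlapped neither (56.5%, interval 41.1 to 71.1; all JunB peaks 54.3%). Of the 26 BATF peaks 15 overlapped JunB (57.7%, interval 36.9 to 76.6; all BATF peaks 70.7%). In each of these the share over the whole list lay within the interval of the 9 loci.

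The 30 IRF4 peaks present in both genotypes stood at a median of 2.35 points later in the Junb-deficient list (all 20218 pairs 0.30 points), which is less than the longest run. The 11 that overlapped JunB stood later by a median of 8.50 points, 9 of them later and 2 earlier, where over all 9539 JunB-shared pairs the median was 2.20 points and 61.1% stood later. The 19 that did not overlap JunB had a median of -0.90 points, with 9 later and 10 earlier, against -3.18 points over all such pairs. The 11 JunB-shared pairs started between 0.351% and 35.5% of the Junb-sufficient list, so they had more room to move later than earlier. The set of all JunB-shared pairs was not matched to them on starting place. The smallest of the 9 later shifts was 0.6 points, less than the longest run. These medians describe 1 library per genotype and carry no test.

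**Figure D5:**
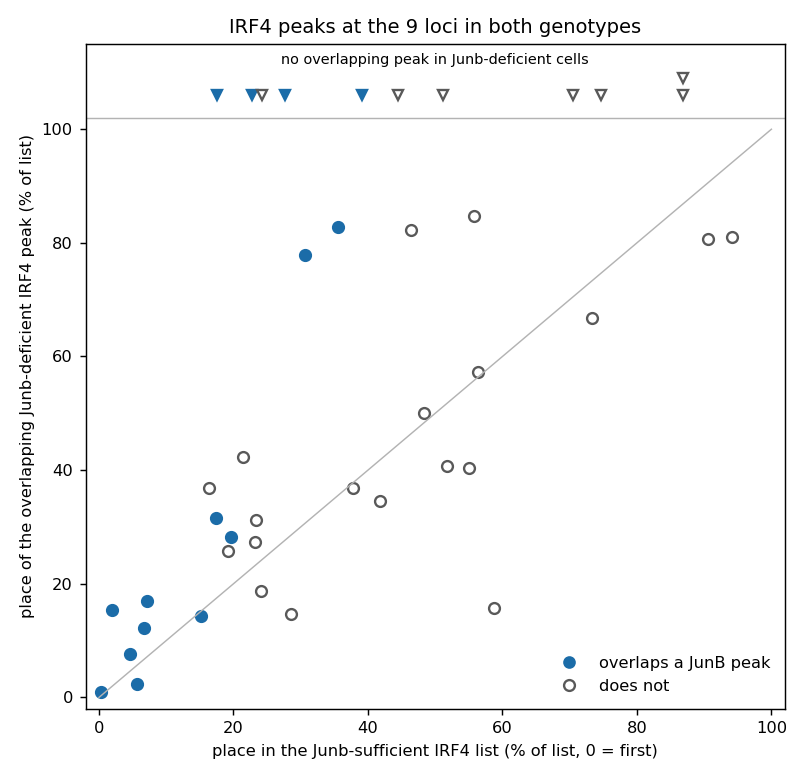
Place of each IRF4 peak of the 9 loci in the Junb-sufficient list (horizontal axis, percent of the list, 0 is first) against the place of its Junb-deficient counterpart (vertical axis), with the line of equal places; triangles above the line at the top are the 11 peaks without a counterpart, drawn at 2 heights only to separate peaks at the same place, and filled symbols overlap JunB. Of the 11 filled points 9 lie above the line of equal places.

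The other genes of the pathways, 27 in a list of inhibitors, kinases and adaptors, NFAT relatives and calcineurin and calcium entry genes, held 103 JunB, 62 BATF, 123 Junb-sufficient IRF4 and 107 Junb-deficient IRF4 peaks. Of the 123 IRF4 peaks 42 were missing (34.1%), near the 35.0% of the whole list, and of the 59 shared with JunB 19 (32.2%, 95% exact interval 20.6 to 45.6; all JunB-shared peaks 23.8%). The share missing was 37.1% at 7 NF-kB inhibitors and co-regulators, 21.6% at 9 kinases and adaptors, 33.3% at 2 NFAT relatives and 42.2% at 9 calcineurin and calcium entry genes. At the last group, the one with the highest share of the 4, 11 of 21 JunB-shared IRF4 peaks were missing (52.4%, interval 29.8 to 74.3; all JunB-shared peaks 23.8%); the group was singled out after its values were seen and has no test. Most IRF4 peaks were found at Dyrk1a, a kinase that phosphorylates NFAT, with 11, and at Nfkbiz, which encodes a nuclear IkB protein, with 8. Their windows span 199 and 117 kb, and these counts were not scaled to the window. Among genes with at least 5, the share missing was highest at Dyrk1a (7 of 11, 63.6%) and at Rcan1, a calcineurin inhibitor that NFAT induces (3 of 5, 60.0%). At Nfkbiz 4 of 8 were missing.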

How the data were processed

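JunB, BATF and IRF4 ChIP-seq peak lists of activated Treg cells were analysed, with 1 library for each of 4 conditions. The authors aligned reads with Bowtie2 and called peaks with HOMER (version 4.8 in the submitters' processing notes), at a false discovery rate of 0.001 and 4-fold over the surrounding 10 kb, without a control library; 5.25% of putative JunB peaks and 36.2 to 37.4% of the others failed the local filter. The deposited score column was 1 for every peak, so positions and list order were the measurements used. A peak was shared with another list when they overlapped by at least 1 bp. Start sites came from the GENCODE vM1 annotation of mm9 (NCBIM37), and no peak ran beyond a chromosome end. Shares carry exact (Clopper-Pearson) 95% intervals, computed with SciPy 1.17.1 and NumPy 2.4.6 in Python 3.11.15; overlap counting was tested on simulated peaks. Figures were drawn with matplotlib 3.10.9.

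All 9 genes are named. By position the text names, per gene, the earliest-listed peak of each library, each JunB-overlapping IRF4 peak without a counterpart in the other genotype and each peak over a TSS; of the other pathway genes, the 2 with most IRF4 peaks and the 2 with the highest share missing among those with at least 5. Other peaks were named after their values were seen. The members and lists were chosen with earlier results of these data known. A repeat of the ChIP-seq experiment that the study mentions was not analysed here. Where the labels' genotype or antibody fields differ from the titles and the study, this is stated with the groups.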

Additional observations from a re-analysis of the deposited data

How the results depend on the processing

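With a distance of at most 10 kb the 9 loci held 18 JunB, 9 BATF, 15 Junb-sufficient IRF4 and 13 Junb-deficient IRF4 peaks, and 7.69% of the last had no counterpart. With 100 kb they held 42 BATF, 69 Junb-sufficient IRF4 and 73 Junb-deficient IRF4 peaks. BATF peaks numbered 17 when only peaks nearest to a member TSS counted and 11 in the first 50% of each list. With the BATF and IRF4 lists exchanged, as the antibody field has them, there were 41 BATF and 26 Junb-sufficient IRF4 peaks and 51.3% of Junb-deficient IRF4 peaks had no counterpart. The list then standing for Junb-sufficient IRF4 held 13570 peaks, against 31093 before the exchange. Without the Nfkb1 locus, an alternative chosen after seeing the data, 20 JunB and 16 BATF peaks remained. The other 53 values over the 9 loci stayed within 1.5 times the count or within the interval of the share. Under all overlap rules tried, the share of missing IRF4 peaks ran from 24.4% (a gap of up to 1 kb, which restored the Nfkbia downstream peak) to 36.6% (centres within 100 bp). The whole-list shares given above hold for an overlap of 1 bp and for the lists as titled. No whole-list share under the other settings stands beside these values, so they cannot be read as particular to the 9 loci. For single genes 7 of 77 shares left their interval, all to 0 from counts of 1 or 2 peaks. The intervals cover counting error over few peaks, so staying inside one says little about dependence on the processing. An interval from at least 1 missing peak always excludes 0. No paired analysis was possible because each condition had 1 library. A peak below the threshold is not listed, so a missing peak is one not listed at this depth, and no fold or error can be given.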

Other observations

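Between 50 and 100 kb from a TSS the 9 loci held a further 20 JunB, 16 BATF, 28 Junb-sufficient IRF4 and 34 Junb-deficient IRF4 peaks. There 4 of the 28 Junb-sufficient IRF4 peaks had no Junb-deficient counterpart (14.3%, 95% exact interval 4.03 to 32.7; all peaks 35.0%), and 10 of the 34 Junb-deficient peaks had no Junb-sufficient one (29.4%, interval 15.1 to 47.5; all peaks 30.4%). Of the 12 Junb-sufficient IRF4 peaks that overlapped JunB 1 was missing, at Nfatc1 (8.33%, interval 0.211 to 38.5, all JunB-shared peaks 23.8%). The interval for the 28 Junb-sufficient IRF4 peaks lay below the share of all peaks. This range was not among the planned comparisons, and the difference was not tested. The share missing depends on place in the list, which was not taken into account here. Nfatc3, without a JunB or BATF peak within 50 kb, had 3 JunB, 2 BATF, 4 Junb-sufficient and 4 Junb-deficient IRF4 peaks in the outer range, and none of its 4 was missing. Nfatc1 had 5 JunB peaks there, against 1 within 50 kb, and 2 of them overlapped both BATF and IRF4.

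The share of missing IRF4 peaks at single pathway genes spread around the 34.1% of all 27 and the 35.0% of the whole list, over few peaks each. At Tnfaip3, which encodes a deubiquitinase that restrains NF-kB, 10 JunB peaks were listed and 0 of 7 IRF4 peaks were missing, and at Traf2, an adaptor of the TNF receptor family, 0 of 6 were missing. At Bcl3, a nuclear IkB protein, 3 of 4 were missing, and at Ppp3r1, which encodes the regulatory subunit of calcineurin, 3 of 4 were. These genes were picked after their values were seen, and 1 library per genotype gives no test.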
